A study of Bombyx mori with 3 samples.

Results

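The peptidases described here are the enzymes that shorten peptides from their ends, together with the cathepsins and metalloproteases, as named on a silkworm oligonucleotide array. A gene probe was a member if its description held aminopeptidase, carboxypeptidase, dipeptidase, endopeptidase, cathepsin, metalloprotease or cysteine proteinase. Text with inhibitor, proteasome, trypsin or serine was left out. The files mark a spot when its brighter channel reaches an intensity of 400, and a member had to carry that mark on at least 1 of 3 arrays. Of 23229 gene probes on the array, 107 had such a description, 64 of these were marked on no array, and 43 were members. Of the 43, 29 were marked on all 3 arrays and were tested, 6 were marked on 2 arrays and 8 on 1 array. The faintest member, the ADAM metalloprotease probe sw02608, reached 403 in its brightest channel. The brightest probe just outside, sw12842, matched to a moulting fluid carboxypeptidase A, reached 342.

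The study compared phoxim-treated with control midguts of the domestic silkworm Bombyx mori, strain P50. Treated larvae on day 3 of the fifth instar ate mulberry leaves dipped for 1 min in phoxim at 4 µg/mL, an organophosphate insecticide, and control larvae ate leaves dipped in water. Dissection followed after 24 h, with 30 larvae to an experiment. On each of 3 two-colour arrays one dye labelled the RNA of treated midguts and the other that of control midguts, and the series calls the arrays biological replicates. The whole dissected midgut is a mixed tissue, so fewer cells of a type and less RNA per cell cannot be told apart.

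In the caterpillar midgut, secreted endopeptidases first cut dietary protein, and exopeptidases then free single amino acids from the ends. Aminopeptidase N is a zinc enzyme tethered to the brush border membrane that removes residues from the N-terminus, and in Lepidoptera it also binds insecticidal Cry toxins of Bacillus thuringiensis. Carboxypeptidases A and B are secreted zinc enzymes that remove residues from the C-terminus, A preferring aromatic and aliphatic residues and B basic ones. Cathepsins act mostly in lysosomes, and dipeptidases and proline-specific peptidases finish small peptides, largely inside the cell.

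Directions are phoxim over control as each array's header states the ratio. By the headers, Cy3 held phoxim on replicate 2 and Cy5 held it on the other arrays, while the labels name Cy5 for phoxim throughout, so the sources differ on replicate 2 and its direction is not settled. With the headers' directions, replicates 1 and 2 had r = 0.62 across the 3964 tested probes. Across all 23229 gene probes, of which most were unmarked, r was -0.47. Both values describe the arrays, and probes of an array share its hybridization. With replicate 2 turned, no member was called either. The deposited ratios were normalized by the submitters and are not plain quotients: on replicates 1, 2 and 3 the quotient of the intensities had the opposite sign to the deposited ratio for 2, 6 and 5 of the 29 tested members.

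The labelled tissue was checked with marker lists. Of 58 midgut epithelium probes 36 were tested, with a median log2 ratio of 0.25 and summed intensities of 341984 to 453055 for phoxim and 294345 to 355447 for control. Of 12 silk gland probes 0 were tested. Of 52 fat body probes 23 were tested, with a median log2 ratio of 1.06 and sums of 149114 to 368745 for phoxim and 132773 to 146977 for control. Of 47 muscle probes 23 were tested, with a median of 0.52 and sums of 105002 to 135815 for phoxim and 76594 to 93489 for control. Of 31 haemocyte probes 3 were tested, with a median of 0.72 and sums of 8693 to 10826 for phoxim and 8244 to 9792 for control, and 1 was at or below 0 in every channel. The part of these lists in the values below was not tested.

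No single peptidase passed the test, and the median of the group was near that of all probes. None of the 29 tested members was called (limma, Benjamini-Hochberg adjusted p below 0.05 over all tested probes), against 0.681% of all 3964 tested probes, 0.505% higher and 0.177% lower. A count of 0 among 29 is near that background. At an unadjusted p below 0.05 there were 5 members, 2 higher and 3 lower, or 17.2% against 15.2% of all tested probes. With replicate 2 turned there were 0, and among the 24 members with both channels at 400 or above on all arrays there were 2 higher and 0 lower. The log2 ratio was positive on all 3 arrays for 7 members and negative on all 3 for 5, where 23% and 14.3% of all tested probes were so. The median of the members' mean log2 ratios was 0.03, equal at this precision to the 0.03 over all tested probes, and 25 of 29 members (86.2%) lay within 1.5-fold of no change, against 89.6% of all tested probes.

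**Figure D1:**
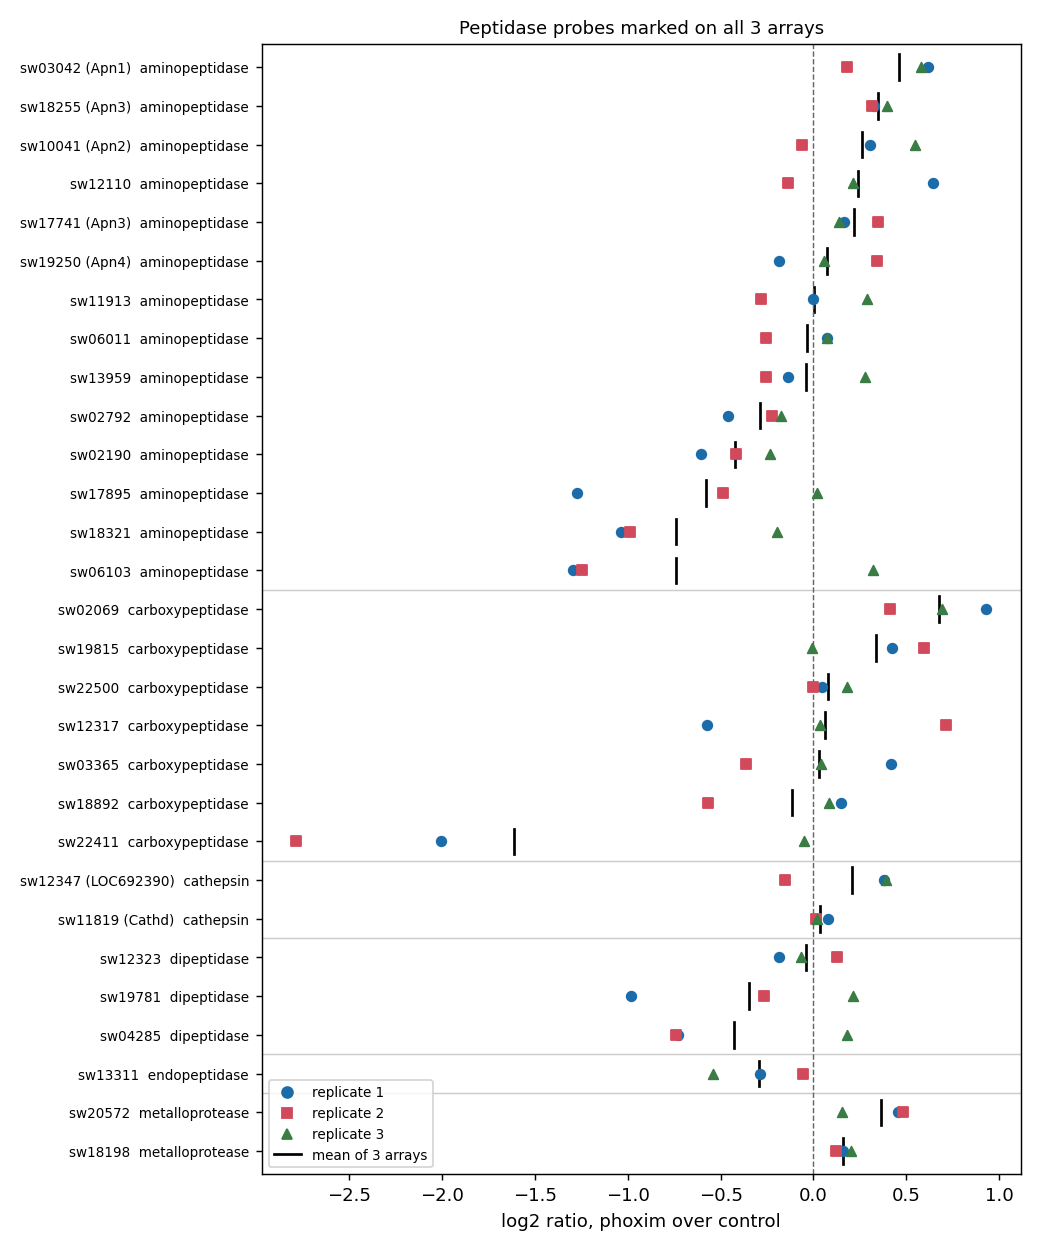
Log2 ratio of phoxim over control, on the horizontal axis, for the 29 peptidase probes marked on all 3 arrays, grouped by role and ordered by mean within a role. Points are single arrays and black bars are the mean of 3 arrays. Most means lie within 0.5 of 0, and the widest spread is that of sw22411, from -2.79 on replicate 2 to -0.05 on replicate 3.

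Among the brush border aminopeptidases, the tested probes that the files assign to the silkworm genes Apn1 to Apn4 had mean log2 ratios between 0.07 and 0.46. In RefSeq's gene table of assembly ASM3026992v2, used for names and order only, Apn3, Apn1 and Apn4 are consecutive coding genes, and 4 coding genes lie between Apn4 and Apn2. Apn1, probe sw03042, read 41323, 28993 and 39258 with phoxim on replicates 1, 2 and 3, against 19134, 30507 and 28605 in control. Phoxim was the brighter channel on replicates 1 and 3 and slightly the dimmer on replicate 2, where it was in the other dye. The deposited log2 ratios of Apn1 were 0.62, 0.18 and 0.58. Their mean was 0.46 ± 0.24 (SD, n = 3, adjusted p = 0.29, limma), with a 95% interval of 0.05 to 0.87 that is not adjusted for the number of probes.

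Apn3 had 2 probes that differed little. The first, sw18255, read 38713, 22157 and 38901 with phoxim against 21658, 39367 and 25296 in control, and its deposited log2 ratios were 0.33, 0.31 and 0.40. On replicate 2 its intensities gave a quotient of -0.83 on the log2 scale, so that the direction there rests on the submitters' normalization. The second, sw17741, had log2 ratios of 0.17, 0.35 and 0.14. The means were 0.35 ± 0.05 and 0.22 ± 0.11 (SD, n = 3; adjusted p = 0.34 and adjusted p = 0.51, limma), both positive on all 3 arrays.

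Apn4, probe sw19250, read 30186, 29085 and 31590 with phoxim against 26508, 27603 and 29114 in control. The deposited log2 ratios of Apn4 were -0.18, 0.34 and 0.06 (mean 0.07 ± 0.26, SD, n = 3, adjusted p = 0.86, limma). Phoxim was the brighter channel on each array, so the negative sign on replicate 1 rests on the submitters' normalization. Apn2 was represented by sw10041, with 0.30, -0.06 and 0.55 (mean 0.26 ± 0.31, SD, n = 3), and by the dim sw05220, marked on 2 arrays, with -0.19, -0.58 and 0.42. The 2 Apn2 probes thus differed by 0.38 in their means and were both lowest on replicate 2. The control channel of sw05220 on replicate 1, at 271, was not above the negative controls. Its ratio there, and so its mean, is not exact.

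Among tested aminopeptidase N probes without a silkworm gene symbol the signs of the deposited ratios were mixed or negative. Those of Apn2 and Apn4 were also mixed. The probes without a symbol are named by similarity to proteins of other moths. The probe sw06103, matched to aminopeptidase N of the diamondback moth Plutella xylostella, read 1066, 2100 and 2006 with phoxim against 2408, 3428 and 1973 in control. It was dimmer with phoxim on replicates 1 and 2 and about level on replicate 3, with log2 ratios of -1.30, -1.24 and 0.32 (mean -0.74 ± 0.92, SD, n = 3, adjusted p = 0.34, limma). A second probe with the same best match, sw02792, was negative on all arrays at -0.46, -0.22 and -0.18. The probe sw12110, matched to another Plutella aminopeptidase N, had 0.64, -0.13 and 0.21, with a mean of 0.24 that lay within the range of Apn1 to Apn4. The probe sw13959, matched to aminopeptidase N4 of Helicoverpa armigera, had -0.14, -0.25 and 0.28, with a mean of -0.04. Over all 9 tested probes named aminopeptidase N the median was 0.22, with medians of 0.17, -0.06 and 0.28 on replicates 1, 2 and 3. Of these 9, 3 were positive on all arrays and 1 was negative on all.

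**Figure D2:**
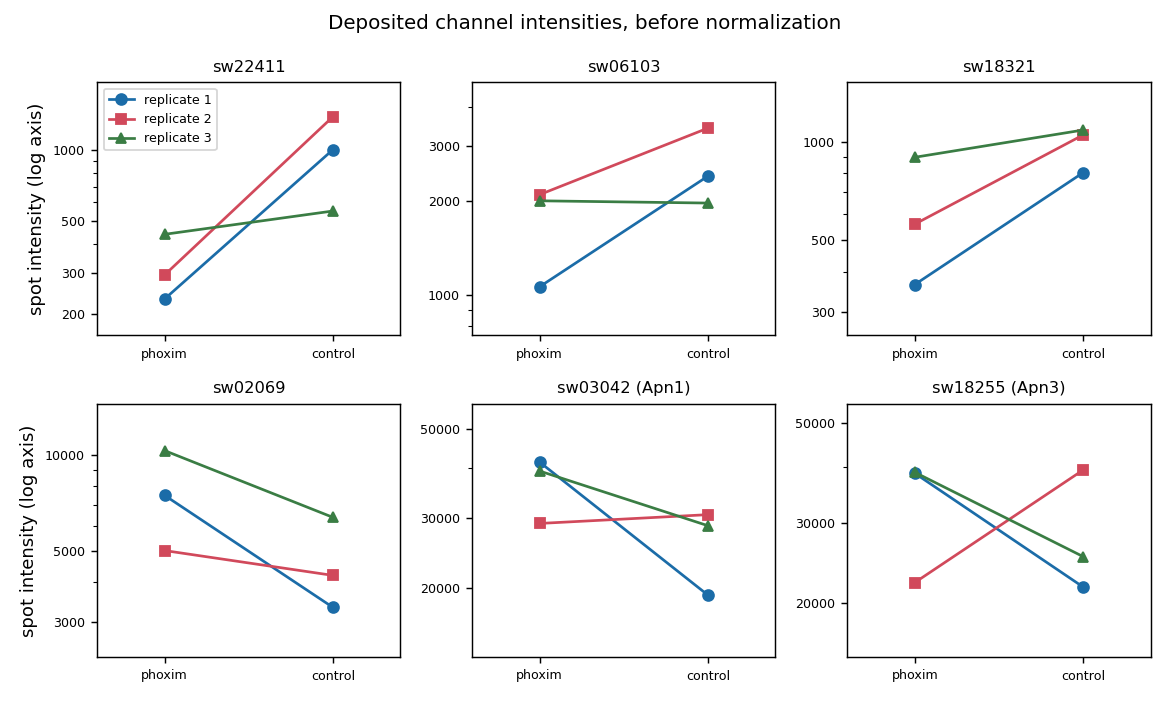
Deposited intensities on a log axis in the phoxim and control channels of each array for 6 of the named probes, with lines joining the channels of an array. The upper row holds probes whose intensity was lower with phoxim on replicates 1 and 2, and in the lower row Apn1 and Apn3 (sw18255) slope the other way on replicate 2 than on replicates 1 and 3.

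The 5 other tested aminopeptidases had means from -0.74 to 0.00 and a median of -0.42. Of these, 4 are proline-specific by name. Such aminopeptidases P release an N-terminal residue that precedes proline, a bond most peptidases do not cut. The probe sw18321, matched to the membrane-bound form of mouse, read 365, 559 and 896 with phoxim against 804, 1049 and 1086 in control. It was lower with phoxim on every array, and least so on replicate 3, with log2 ratios of -1.04, -0.99 and -0.19 (mean -0.74 ± 0.47, SD, n = 3, adjusted p = 0.19, limma).

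The probe sw17895, matched to aminopeptidase P of Trypanosoma cruzi, had log2 ratios of -1.27, -0.49 and 0.02, a wide spread with the lowest value on replicate 1. The cytosolic type was represented by sw11913 and sw06011, which share a human best match. Their log2 ratios were 0.00, -0.28 and 0.29 for sw11913 and 0.07, -0.26 and 0.07 for sw06011, with means of 0.00 and -0.04. The membrane-bound and cytosolic types thus had different means, a contrast that was not tested. Methionine aminopeptidase, which removes the first methionine of new proteins, was measured by sw02190 with 322, 536 and 473 with phoxim against 504, 510 and 703 in control. Its log2 ratios were -0.61, -0.42 and -0.24, although on replicate 2 the intensities were in the opposite order (mean -0.42 ± 0.19, SD, n = 3, adjusted p = 0.30, limma).

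The carboxypeptidases held both the highest and the lowest mean of all tested members. Both were carboxypeptidases A by name. The highest was sw02069, matched to carboxypeptidase A of Helicoverpa armigera, which read 7479, 5021 and 10336 with phoxim against 3328, 4196 and 6380 in control. The phoxim channel was the brighter on each array, and the log2 ratios were 0.93, 0.41 and 0.69. Its mean of 0.68 ± 0.26 (SD, n = 3), or 1.60-fold, had the smallest unadjusted p of the members, 0.0065, and an adjusted p = 0.15 (limma). Its 95% interval was 0.26 to 1.10, and with replicate 2 turned its mean was 0.40. A second tested probe with the same best match, sw18892, read 14896, 13912 and 16761 with phoxim against 16834, 26169 and 17439 in control. Phoxim was its dimmer channel on each array, where for sw02069 it was the brighter. In the deposited log2 ratios of sw18892, 0.15, -0.57 and 0.08, the sign of the 2 probes differed on replicate 2 alone. Its signs on replicates 1 and 3 thus rest on the submitters' normalization.

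The lowest member was sw22411, matched to a zinc carboxypeptidase A of the mosquito Anopheles gambiae. It read 232, 294 and 438 with phoxim, against 1009, 1396 and 551 in control. The control channel was several times the brighter on replicates 1 and 2 and close to phoxim on replicate 3. The log2 ratios were -2.01, -2.79 and -0.05, averaging -1.61 ± 1.41 (SD, n = 3, adjusted p = 0.19, limma). This was the largest SD of the members, and the phoxim channel was above the 95th percentile of the negative control spots on 2 of the 3 arrays, so the ratio of replicate 2 is partly a bound. With replicate 2 turned the mean was 0.24.

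Carboxypeptidase B was named for 3 tested probes, which share a best match in Helicoverpa zea and had means of 0.03, 0.06 and 0.08. The values were 0.42, -0.36 and 0.04 for sw03365, -0.57, 0.71 and 0.04 for sw12317, and 0.05, -0.00 and 0.18 for sw22500. Their medians by array lay between -0.00 and 0.05, while sw12317 alone ranged over more than 1 log2 unit between arrays. The probe sw19815 is matched to angiotensin-converting enzyme of dog, a peptidyl dipeptidase that its other name, dipeptidyl carboxypeptidase, placed in this class. It read 12471, 12290 and 10475 with phoxim against 7780, 9137 and 10621 in control. Its log2 ratios were 0.42, 0.60 and -0.01 (mean 0.34 ± 0.31, SD, n = 3, adjusted p = 0.41, limma).

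Of the cathepsins, 2 were marked on all arrays and neither was far from 0. Cathepsin D, a lysosomal aspartic protease, had the smallest SD of the tested members. Its probe sw11819, which the files call Cathd and RefSeq CatD, read 665, 462 and 366 with phoxim against 633, 334 and 450 in control. Its log2 ratios were 0.08, 0.02 and 0.02, although on replicate 3 the intensities were in the opposite order. Its small SD is thus one of normalized ratios. The 95% interval of its mean of 0.04 ± 0.03 (SD, n = 3, adjusted p = 0.93, limma) was -0.33 to 0.41, since limma moderates a small SD towards that of other probes. Cathepsin B, a lysosomal cysteine protease measured by sw12347 of gene LOC692390, read 908, 882 and 1551 with phoxim against 735, 758 and 1354 in control. Its log2 ratios were 0.38, -0.15 and 0.39, although on replicate 2 the intensities were in the opposite order (mean 0.21 ± 0.31, SD, n = 3, adjusted p = 0.60, limma).

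The dipeptidases, which split peptides of a pair of residues, had lower means with a spread as large as the difference. The cytosolic nonspecific dipeptidase probe sw04285 read 2583, 3160 and 4432 with phoxim against 4841, 6556 and 4041 in control, which gave -0.73, -0.74 and 0.18. Prolidase, probe sw19781, cleaves dipeptides that end in proline and had -0.98, -0.26 and 0.21. Both were negative on replicates 1 and 2 and positive on replicate 3, with means of -0.43 ± 0.53 and -0.35 ± 0.60 (SD, n = 3). The alpha-aspartyl dipeptidase probe sw12323 stayed nearer to 0 at -0.19, 0.13 and -0.07.

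The remaining classes were small. The one tested endopeptidase probe, sw13311, is matched to the O-sialoglycoprotein endopeptidase Osgep, a protein now known for its part in modifying transfer RNA. It had -0.29, -0.06 and -0.54, the intensities of replicate 2 being in the opposite order (mean -0.29 ± 0.24, SD, n = 3, adjusted p = 0.43, limma). Both tested metalloproteases were positive on all arrays in the deposited ratio. The probe sw20572, matched to the mitochondrial inner membrane protease YME1L1, had 0.46, 0.48 and 0.15. The ADAM metalloprotease probe sw18198 had 0.16, 0.12 and 0.20, although on replicate 3 its intensities were in the opposite order, 906 with phoxim against 930 in control. The means of sw20572 and sw18198, 0.36 and 0.16, did not pass (adjusted p = 0.34 and adjusted p = 0.62, limma).

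In the headers' directions, replicate 3 differed from the other arrays in the members' values. Of the 29 members, 15 had their highest ratio on replicate 3, where the share over all tested probes was 38.6%. The members' SD across probes was 0.68, 0.67 and 0.26 on replicates 1, 2 and 3, beside 0.63, 0.49 and 0.44 for all tested probes. Across the 29 members, which share arrays, replicates 1 and 2 correlated with r = 0.74. For replicates 1 and 3 r was 0.45, and for replicates 2 and 3 it was 0.20. Over all 3964 tested probes the same pairs of arrays had r = 0.62, 0.18 and 0.26. These values are a description. Turning replicate 2 reverses the sign of the correlations that involve it.

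Without replicate 3, 5 members were called, beside 11.9% of all tested probes, and all 5 were lower, beside 4.72% of all tested probes (limma). They were sw22411 (-2.40, adjusted p = 0.0028), sw06103 (-1.27, adjusted p = 0.010), sw18321 (-1.01, adjusted p = 0.016), sw17895 (-0.88, adjusted p = 0.045) and sw04285 (-0.73, adjusted p = 0.039). These 5 are the carboxypeptidase A, the aminopeptidase N, both lower aminopeptidases P and the nonspecific dipeptidase described above. Replicate 3 decides these calls, and no member was called without replicate 1 or without replicate 2. The calls also rest on the headers' direction of replicate 2: over all 3 arrays with it turned, the means were 0.24, 0.089, -0.080, -0.26 and 0.065 in the same order. The probe sw22411 carried the mark on replicates 1 and 2, and sw18321 on replicate 1, through the control channel alone, so that their filter was passed through the brighter group. The same held for members not called here: sw02190 on replicate 1, sw13311 on replicates 1 and 3, and sw11819 on replicate 3. On replicate 2 sw13311 and sw11819 were marked through phoxim alone. Of the tested members, 24 had both channels at 400 or above on all arrays and a median of 0.07. The other 5, with a channel under that level on some array, had a median of -0.42, and the 2 lowest of them, sw22411 and sw18321, are among the 5 called without replicate 3.

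**Figure D3:**
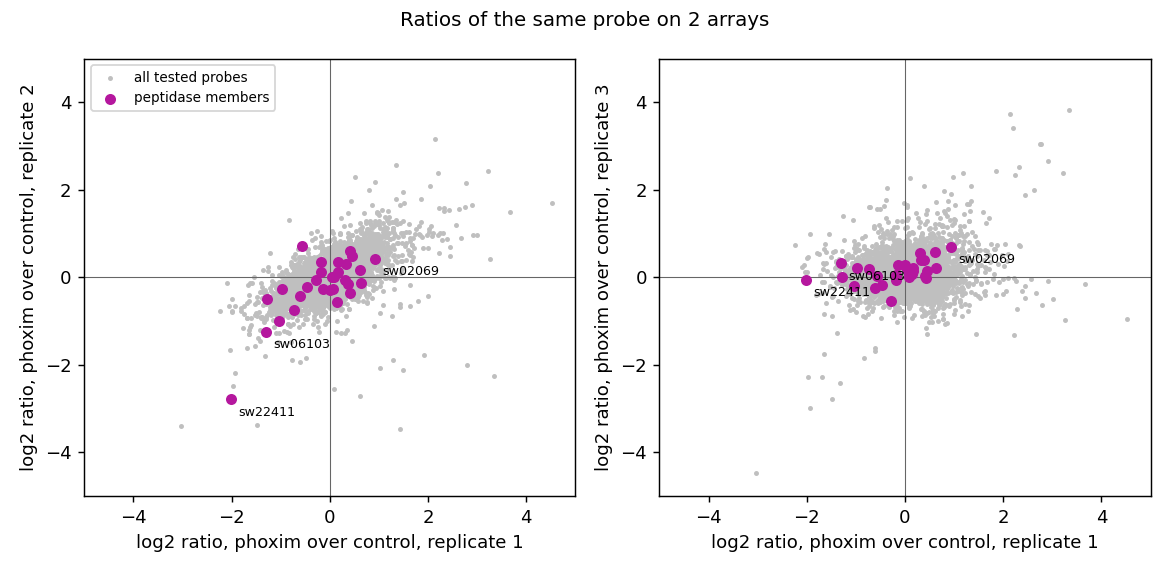
Log2 ratios of phoxim over control of the same probe on replicates 1 and 2 (left) and on replicates 1 and 3 (right), with peptidase members as large points over all tested probes in grey. The member sw22411 lies at -2.01 and -2.79 in the left panel and at -0.05 on the vertical axis of the right panel, while sw02069 is positive in both.

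The 14 members marked on only 1 or 2 arrays were not tested, and their values are dim. In 11 of the 14, a channel on some array was not above the negative controls, so that such ratios are not exact. The zinc carboxypeptidase probe sw14047, matched to a black fly enzyme, read 64, 170 and 238 with phoxim against 483, 1037 and 280 in control. Phoxim was above the negative controls on replicate 3 alone and control on the other arrays alone, so no array gave an exact ratio, and the deposited -2.35 and -2.40 of replicates 1 and 2 are set by a phoxim channel at background. The aminopeptidase N probe sw16277 had -0.94 on replicate 2 and 0.24 on replicate 3, and on replicate 1 neither channel was above the negative controls. In the other direction, sw10048 shares its best match with the 3 carboxypeptidase B probes above and read 355, 894 and 389 with phoxim against 141, 178 and 252 in control. Its log2 ratios were 1.58, 1.95 and 0.96, with the control above the negative controls on 1 array, so they are partly bounds.

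Bcp, called fibroinase in the files, is a cysteine proteinase known from silkworm eggs and silk glands, and had 2 dim probes. The probe sw06143 read 185, 237 and 667 with phoxim against 196, 71 and 221 in control, where it was not above the negative controls on any array, so no fold is given. The second, sw14687, had log2 ratios of 0.36, -0.07 and 0.83. Both were highest on replicate 3 and marked on that array alone.

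The vitellogenic carboxypeptidase probe sw04192 reached the files' higher mark, an intensity of 1500, on replicate 3. It read 729, 282 and 1624 with phoxim against 244, 243 and 2425 in control, with log2 ratios of 1.84, -0.53 and -0.41. Control on replicate 1 and phoxim on replicate 2 were not above the negative controls, so the ratios of those arrays are not exact, and on replicate 3 control was the brighter. A probe matched to the non-catalytic subunit of carboxypeptidase N, sw13228, had -0.68, -0.41 and -0.25, but on replicate 2 its intensities were in the opposite order, 288 with phoxim against 221 in control, with phoxim not above the negative controls. The puromycin-sensitive aminopeptidase probe sw09454 had -0.23, -0.50 and 0.21.

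The other 5 partly marked members had mean log2 ratios between -0.15 and 0.41. They were the lysosomal Pro-X carboxypeptidase sw14860 (0.41), the carboxypeptidase A probe sw00546 (0.35), the ADAM probe sw02608 (0.16), the glutamyl aminopeptidase sw01331 (0.10) and the peptidyl-dipeptidase probe sw03231 (-0.15). Of these, sw14860 alone was positive on all 3 arrays in the deposited ratio, although on replicate 3 its intensities were in the opposite order.

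**Figure D4:**
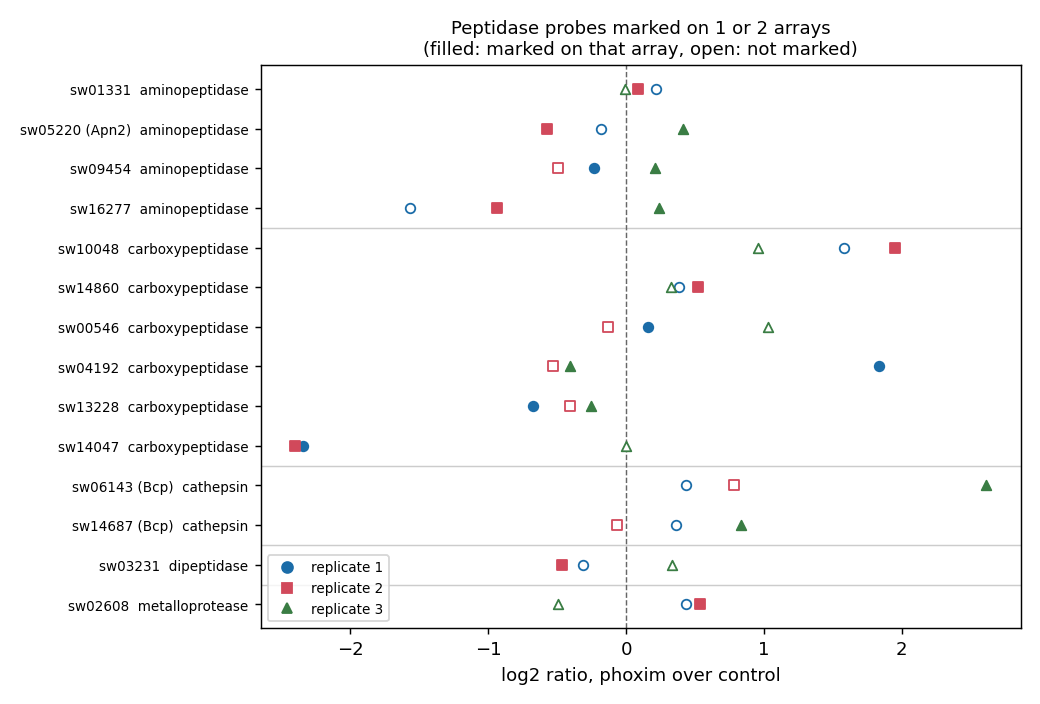
Log2 ratio of phoxim over control on each array for the 14 peptidase probes marked on 1 or 2 arrays. Filled points are arrays on which the probe was marked and open points those on which it was not, and the values of sw14047 near -2.4, on the arrays that marked it, are set by a phoxim channel not above the negative controls.

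Annotation terms that the choice of members did not use split the list by chemistry. Of the 43 members, 8 carry the term for membrane alanyl aminopeptidase activity, 8 that for carboxypeptidase A activity and 9 a metallopeptidase or metalloexopeptidase term. A further 14 have no molecular function term. The 7 gene identifiers given to members all matched RefSeq. The 7 tested probes with a gene symbol had a median of 0.22, beside -0.04 for the 22 without one, and 0 of either were called. Probes that shared a best match could differ in their values or lie close. The means differed by 0.79 over the 3 matched to Helicoverpa armigera carboxypeptidase A. They differed by 1.46 over the 4 matched to Helicoverpa zea carboxypeptidase B, which include the dim sw10048, and by 0.04 for sw11913 and sw06011.

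Other genes of protein digestion and turnover give the setting. Of 103 probes for trypsins, chymotrypsins and other serine proteases, 35 were tested, and 3 rose and 1 fell (limma, adjusted p below 0.05), with a median of 0.43. Over all tested probes 0.505% rose and 0.177% fell at that threshold. Chymotrypsin sw06092, alkaline trypsin sw00532 and the chymotrypsin-like sw19184 rose by 1.10, 1.20 and 1.18 on the log2 scale, and trypsin sw02096 fell by 2.55 (SD 0.96, n = 3, adjusted p = 0.032, limma). Without replicate 2 there were 0 calls in this list, beside 4 over all tested probes. Without replicate 3 there were 13, beside 470, or 11.9%, of all tested probes. With replicate 2 turned no probe of the array was called. In this list 13 probes are also midgut markers and 1 is also counted as an inhibitor. Over the peptidases described above the median was 0.03, and the difference between the lists was not tested.

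None of the probes in the other lists was called with all 3 arrays, where 0.681% of all tested probes were. Without replicate 3 each list had 1 call except the lysosomal list, which had 2, beside 11.9% of all tested probes. The 13 tested peptidase inhibitors had a median of 0.05 and the 7 probes of the lysosomal list one of 0.11. That list was chosen by words in the description and also holds a neutral sphingomyelinase, sw20490. The 6 amino acid and peptide transporters had a median of 0.13 and the 24 proteasome probes one of 0.09. At an unadjusted p below 0.05 these lists held 1 inhibitor and 1 probe of the lysosomal list that were higher, and 1 transporter that was lower. Of all tested probes 15.2% were below that p in either direction. The widest value was that of the lysosomal beta-galactosidase probe sw05025 at 1.16 ± 1.76 (SD, n = 3, adjusted p = 0.38, limma). The fungal protease inhibitor probe sw06771 had 0.70 ± 0.07 (SD, n = 3, adjusted p = 0.12, limma).

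**Figure D5:**
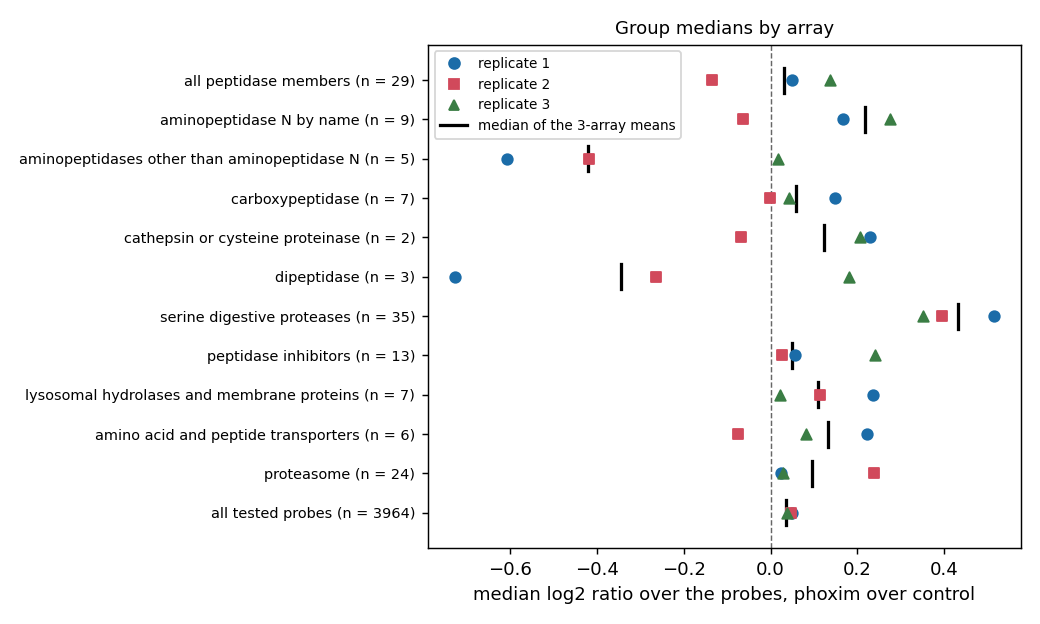
Median log2 ratio of phoxim over control on each array (points) and median of the 3-array means (bars) for peptidase classes and the other lists, with the number of tested probes. The 29 peptidases centre at 0.03 and the 35 serine proteases at 0.43, and aminopeptidases other than aminopeptidase N have medians of -0.61, -0.42 and 0.02 on replicates 1, 2 and 3.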

How the data were processed

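Per the file headers, each deposited file lists the intensity of a spot in Cy5 and in Cy3, and the ratio of phoxim to control. Intensities carry no separate background. The ratio was normalized by the authors, and the sources used here do not name the method. A deposited table of log2 values equals log2 of that ratio to within 4.9e-09. The planned normexp correction needs separate backgrounds, so log2 of the deposited ratio was analysed unchanged. The 3964 gene probes marked on all 3 arrays entered an intercept-only model (R 4.3.3, limma 3.58.1, eBayes, two-sided, Benjamini-Hochberg over all 3964), a fit that was also tested on simulated data. The sources for replicate 2 differ on the dyes, and the header was followed. Alternatives were 13 other settings of filter, normalization, direction, replicates and model. A spot counted as above negative controls over their 95th percentile in its channel. No intensity of a member reached 99% of the highest on its array. The rule for naming took, in each class, up to 4 members at either end that had 1 sign on all arrays, members with a gene symbol or a shared gene, those with the largest and smallest SD, and up to 6 marked on 2 arrays. Other members, and probes of other lists, were named after their values were seen. Members and lists were chosen with earlier results of these data known. Names without a symbol are by best protein match. The files used here hold no probe sequence for a member, and no genome was used. The number of arrays limits the precision.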

Additional observations from a re-analysis of the deposited data

How the results depend on the processing

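The count of 0 called members held in 12 of 13 alternatives in limma, the exception being 5 without replicate 3 (0 to 5 with 1 replicate left out, 10 members at an unadjusted p below 0.05 without replicate 3). Over all tested probes 27 were called, and 4 to 470 with 1 replicate left out (4 without replicate 2, 470 without replicate 3), 16 with both channels at 400 or above, 1 with scaling between arrays, and 0 with no filter, with replicate 2 turned and with a dye term (450, 29 and 348 at an unadjusted p below 0.05). With 1 replicate left out, serine protease calls ranged from 0 to 13 and their median from 0.32 to 0.44. Calls among inhibitors, transporters and proteasome probes ranged from 0 to 1, and on the lysosomal list from 0 to 2. With no filter, serine proteases had 0 calls and a median of 0.11, and the class medians were 0.29 for cathepsins and 0.16 for metalloproteases. The carboxypeptidase median was -0.053 with loess on the intensities and 0.24 with replicate 2 turned, where metalloproteases had 0.062. Of single members, sw11819 turned to -0.0082 with median centring, and sw19815, sw17741 and sw22411 turned to -0.060, -0.015 and 0.24 with replicate 2 turned. Another 26 sign changes lay within the spread of arrays. The cause of these changes was not tested. Each ratio already pairs the phoxim and control RNA of its array, so the fit used that pairing. The labels give 1 group, and no further pairing was possible.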

Other observations

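Of the probes whose text matched but held an excluded word, 5 were marked on all 3 arrays: 2 serine carboxypeptidases and 3 proteasome subunits whose names mention an endopeptidase complex. The serine carboxypeptidases cut C-terminal residues. Their probe sw06213 gave -0.51, 0.17 and 0.06 as log2 ratios by replicate, and sw14878 gave -0.11, 0.26 and -0.13. The proteasome probes sw09073, sw08993 and sw05750 had means of 0.16, -0.08 and 0.10. None of the 5 was called (lowest adjusted p = 0.66, limma).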
